A study of Mus musculus with 11 samples.

Results

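Krt6a, Krt6b, Krt16 and Krt17 encode the keratins that epithelial cells switch on at the edge of a wound, and these 4 genes were chosen by name from the table of gene levels in the gingival epithelium. All 4 were among the 19170 genes with a value, of 55414 genes listed, and all 4 averaged 10 normalized counts or more over the mice. A normalized count is the number of reads counted on a gene in a mouse, divided by a factor that evens out the depth of the libraries. The mice were langerin-DTR mice, which carry the diphtheria toxin receptor under the control of langerin, so that diphtheria toxin (DT) kills the cells that express it, chiefly Langerhans cells (LCs). The control group was 5 mice injected with PBS and the other group was 6 mice injected with DT, in both cases at the ages of 17, 24 and 31 days, and the epithelium was taken at 8 weeks of age. All 11 mice carried the receptor. The study describes LCs as having returned by that age, so a past depletion is compared here and not a current absence of LCs. No wounded tissue was analysed here.

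Keratins form the filaments of epithelial cells as pairs of a type II and a type I protein, and which pair a cell makes depends on its layer and state. Krt6a and Krt6b are type II keratins, and Krt16 and Krt17 are the type I keratins that pair with them. In skin they are sparse between hair follicles and appear quickly in keratinocytes next to an injury, where they are used as markers of activated, migrating or hyperproliferative epithelium. Oral epithelium under mechanical load, including the gingiva and hard palate, makes them without injury.

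The sequences of Krt6a and Krt6b decide how well their reads can be told apart. Their coding sequences were identical at 1622 of 1659 aligned bases (97.77%), and 37 bases differed. Krt16 and Krt17 were identical at 75.78% of 1288 aligned coding bases, and each type II with type I pair at 57.27% to 58.19%. Of the stretches of 75 bases in the messenger RNA of Krt6a, 42.3% also occurred in the transcript of another gene, which was Krt6b, Krt5, Gm5414 or Gm5478. The share was 39.6% for Krt6b, 28.9% for Krt16 (with Krt14 or Gm11597) and 0% for Krt17. The paper describes 75-cycle reads trimmed at their start, so the aligned reads were shorter than these stretches. With stretches of 50 bases the share was 49.5% for Krt6a, 50.1% for Krt6b and 37.6% for Krt16. For Krt17 it was 4.0%, with Krt14, Krt15, Krt16 or Krt42. The annotated genes Gm5414, Gm5478 and Gm11597, named for this shared sequence, had means of 3.28, 111 and 2.55 normalized counts. How the counting program treated reads that fit several genes is not given in the sources used here. The separate values of Krt6a and Krt6b, part of that of Krt16 and a small part of that of Krt17 are therefore uncertain.

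The contrast within the Krt6a and Krt6b pair is shown by 2 windows of 90 bases, read from the GENCODE transcripts on GRCm38 and written 5′ to 3′ on the coding strand. The first window, bases 34 to 123 of the coding sequence, has 0 differences, so that a read inside it fits both genes. The second window, bases 787 to 876, has 12 differences, given in capitals.
Krt6a and Krt6b, bases 34 to 123: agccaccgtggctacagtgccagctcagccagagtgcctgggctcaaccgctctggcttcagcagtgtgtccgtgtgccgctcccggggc
Krt6a, bases 787 to 876: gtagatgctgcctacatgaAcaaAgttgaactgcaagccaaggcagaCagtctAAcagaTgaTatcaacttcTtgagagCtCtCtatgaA
Krt6b, bases 787 to 876: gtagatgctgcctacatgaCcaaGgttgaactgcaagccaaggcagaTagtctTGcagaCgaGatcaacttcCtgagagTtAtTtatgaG
The genes of the type II pair also lie next to each other on chromosome 15, in the order Krt6b, Krt6a, Krt5. Krt14, Krt16, Krt17 and Krt42 follow one another on chromosome 11, so that each type I member borders other type I keratin genes.

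The libraries held between 17509328 and 24325513 reads on genes, and the sum of the normalized counts lay between 19991333 and 20748076 per mouse. The labelled tissue fitted its markers, since all 7 markers of stratified epithelium were above 10 normalized counts, with summed levels of 539759 to 619326 after PBS and 562959 to 639631 after DT. Markers of salivary gland, muscle, melanocytes and T cells summed to at most 47.2 normalized counts in any mouse, and 0 of them had a mean of 10 or more. Other marker lists were higher, with summed levels after PBS and after DT of 1252 to 1450 and 1109 to 1594 for fibroblasts, 631 to 3301 and 614 to 3675 for neutrophils (S100a8 and S100a9, which keratinocytes also make, with Ly6g and Mpo listed without a value), 274 to 482 and 267 to 406 for macrophages, and 552 to 929 and 669 to 880 for the hair follicle. The fibroblast sum was mostly Dcn (mean 1220), with the other markers between 3.45 (Lum) and 56.3 (Col1a1). The hair follicle sum was mostly Tchh (612) and Krt75 (123). Krt27, Krt35 and Krt28 had means of 5.63, 4.41 and 2.12, and Krt25, Krt71 and Krt85 had no value. Langerhans cell markers summed to 1552 to 4065 after PBS and 1069 to 2273 after DT. That sum was mostly Cd74 (mean 1120), H2-Ab1 (457) and H2-Aa (399), with Cd207 at 20.9. The part of any of these cells in the keratin levels was not tested. Cd207, which encodes langerin, lay between 10.0 and 43.0 normalized counts in the PBS group and between 15.8 and 21.6 in the DT group, with a log2 fold change of -0.19 (SE 0.30, limma adjusted p = 0.853).

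The wound-induced keratins were among the most abundant transcripts of the epithelium in both groups. Ranked by mean normalized count over all genes, Krt6a was 4, Krt6b was 8, Krt16 was 11 and Krt17 was 25. Together they took 3.37% ± 0.299 (SD, n = 5 mice) of all normalized counts after PBS and 3.30% ± 0.263 (SD, n = 6) after DT. Their share of the 43 keratin genes with a value, per transcript length, was 19.6% ± 1.30 after PBS and 18.7% ± 0.913 after DT. In these bulk samples, fewer cells of a type and less RNA per cell cannot be told apart.

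Per kilobase of transcript, the mean level was highest for Krt6a among the 4 genes, at 110920 normalized counts per kb, with a range of 95435 to 131872 over the 11 mice. Krt16 followed at 109857 (96656 to 138292), Krt6b at 89007 (81940 to 103141) and Krt17 at 35116 (28156 to 47060). Krt6a was above Krt16 in 8 of 11 mice, and the ranges of these neighbours overlapped nearly completely. With every annotated exon counted in the length of Krt6a, its level per kb was 104498 and it exceeded Krt16 in only 2 of 11 mice, so these genes have no settled order. Krt16 was above Krt6b, and Krt6b above Krt17, in 11 of 11 mice with either length. In normalized counts, with no length, the order of Krt16 and Krt6b was reversed in every mouse. The ratio of Krt6b to Krt16 was then 1.04 to 1.22 after PBS and 1.08 to 1.26 after DT. Dividing instead by the stretches of 75 bases that a gene shares with no other gave 199 normalized counts per stretch for Krt6a, 162 for Krt16, 152 for Krt6b and 36.9 for Krt17. With stretches of 50 bases Krt6b (182.3) and Krt16 (181.7) were level.

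Set among the other keratins, the wound-induced genes stood below Krt13, Krt76 and Krt4, and Krt6a, Krt16 and Krt6b lay between the basal keratins Krt14 and Krt5. Krt13, the type I keratin of oral suprabasal cells, had 539721 normalized counts per kb, Krt76, a type II keratin of hard palate and gingiva, had 314771, and Krt4, the type II partner of Krt13, had 240675. Krt14, the basal type I keratin, was at 117808 and exceeded Krt6a in 8 of 11 mice. Krt10, a type I keratin of cornifying epithelium, was at 86623, and Krt6b was above it in 5 of 11 mice. Krt5, the type II partner of Krt14, was at 40322 and exceeded Krt17 in 10 of 11 mice. These levels assume reads spread over the transcript, whereas the methods also refer to a guide for libraries read from the 3′ end, in which case the normalized counts themselves would be the level. By mean normalized count, Krt6a (252675) lay above Krt14 (200039), and Krt6b (198931) lay above Krt16 (171927).

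**Figure D1:**
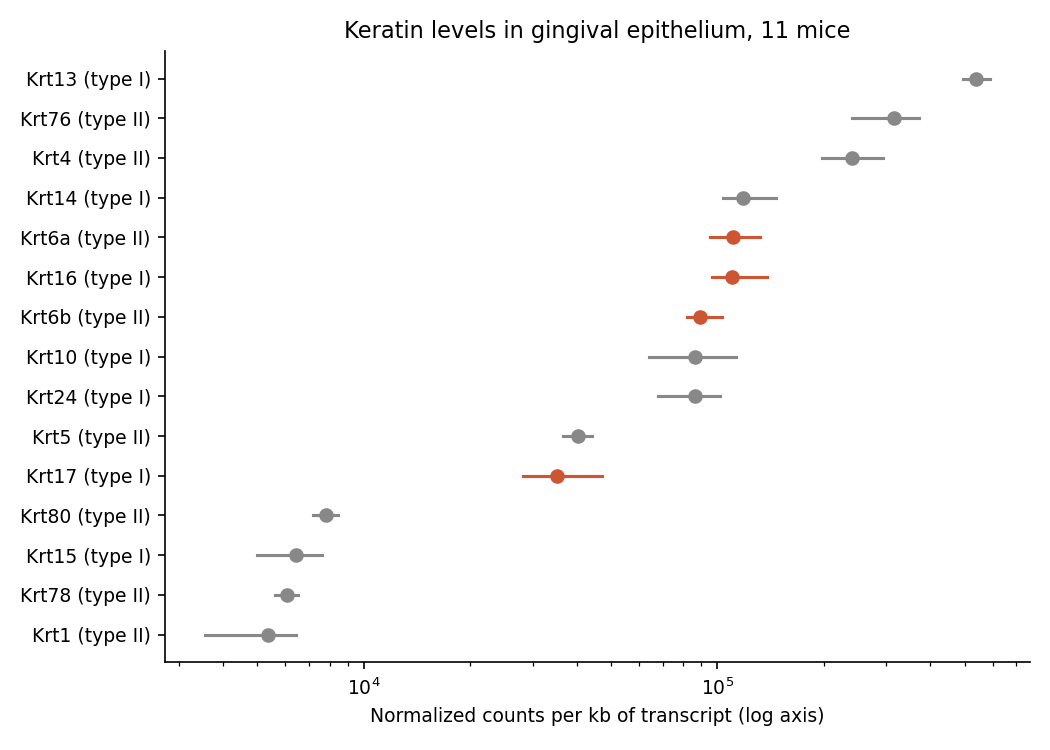
Mean level of the 15 most abundant keratin genes per transcript length, in normalized counts per kb on a log axis, with lines from the lowest to the highest of 11 mice and the wound-induced keratins in orange. Krt6a, Krt16 and Krt6b lie between 89007 and 110920, beside Krt14 and Krt10, and Krt17 lies at 35116, below Krt5.

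None of the wound-induced keratins differed between DT-treated and PBS-treated mice beyond the spread between mice. At an adjusted p under 0.1 by limma over 19170 genes, 0 of the 4 were called, where 0.558% of all genes were (0.313% higher and 0.245% lower after DT). At an unadjusted p under 0.05 the number was again 0 of 4, against 11.5% of all genes. The groups overlapped in each of the 4 genes, and 2.11% of the 13477 genes averaging 10 normalized counts or more had groups that lay fully apart. With shares this low, most sets of 4 genes would give 0 as well, so these counts do not set the keratins apart. The replicate numbers only name the mice. Each limma p and interval rests on the spread of a gene between mice, drawn toward that of genes of like level.

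Krt6a, the more abundant type II gene, had 249521, 244513, 267809, 257355 and 217401 normalized counts in the PBS-treated mice 1 to 5. After DT its lowest value was 229599, its median 248565 and its highest 300404. The lowest value of all belonged to PBS 5 and the highest to DT 3, and 4 DT-treated mice lay inside the PBS range while 2 lay above it. Its log2 fold change was 0.05 (SE 0.10, limma adjusted p = 0.882, n = 5 and 6 mice), with a 95% interval of -0.16 to 0.27. In percent, the interval ran from -10.7% to 20.7%.

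Krt6b, its near-identical neighbour, had 190221, 196939, 225138, 204421 and 191725 normalized counts in the PBS-treated mice 1 to 5. After DT its lowest value was 183136, its median 191399 and its highest 230521. DT 3 and PBS 3 stood above the other mice of their groups, and the ranges covered almost the same span. Its log2 fold change was -0.04 (SE 0.09, limma adjusted p = 0.915, 95% interval -0.24 to 0.16), or -15.2% to 11.9%. With Krt6a and Krt6b summed as 1 gene, which does not depend on how reads were divided between them, the log2 fold change was 0.013 (limma adjusted p = 0.981).

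Krt16, the type I partner, had 170413, 162441, 216427, 168854 and 156826 normalized counts in the PBS-treated mice 1 to 5. After DT its lowest value was 151266, its median 165475 and its highest 199300. PBS 3 was the highest mouse of either group and DT 3 the next, while 3 DT-treated mice lay below the lowest PBS value. Its log2 fold change was -0.05 (SE 0.11, limma adjusted p = 0.914, 95% interval -0.28 to 0.19), or -17.5% to 13.9%, and it was 0.03 without PBS 3.

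Krt17, which is also a keratin of hair follicles and of basal cells under stress, had 60437, 48392, 72990, 43670 and 57916 normalized counts in the PBS-treated mice 1 to 5. After DT its lowest value was 43673, its median 53675 and its highest 59933. PBS 3 was again the highest mouse, but DT 3 was not high, and all 6 DT-treated mice lay within the PBS range. Its log2 fold change was -0.09 (SE 0.12, limma adjusted p = 0.822, 95% interval -0.35 to 0.16), or -21.4% to 11.9%. Without PBS 3 the log2 fold change was 0.004 for Krt17 and 0.002 for Krt6b, so the negative values of Krt6b, Krt16 and Krt17 rested on that mouse.

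**Figure D2:**
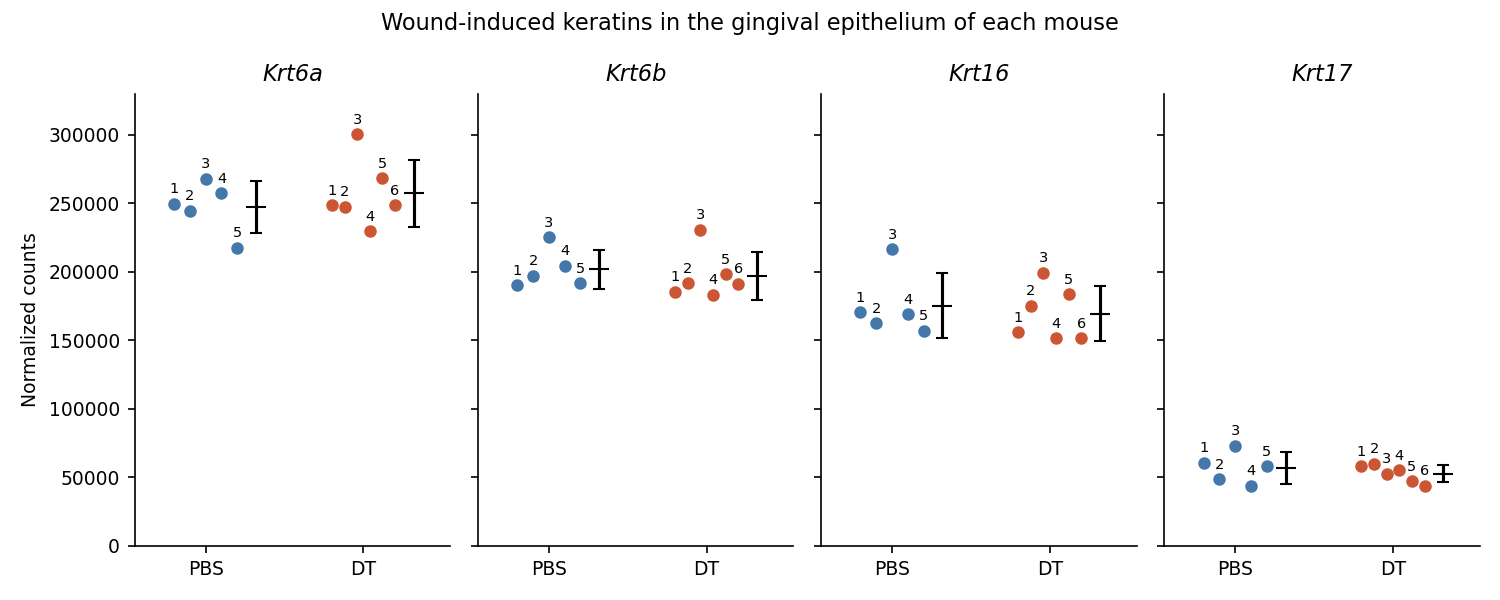
Normalized counts (axis from 0) of each wound-induced keratin in 5 PBS-treated (blue) and 6 DT-treated (orange) mice, with the replicate number above each point and the group mean ± SD at its right. The groups overlap in all 4 panels, and mouse 3 of each group is high in Krt6a, Krt6b and Krt16.

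A two-sided exact permutation test of each mean log2 value over the 462 splits of the mice gave p = 0.502 for Krt6a, 0.539 for Krt6b, 0.671 for Krt16 and 0.513 for Krt17, where 0.00216 is the smallest p these groups allow. The spread between all 11 mice was moderate in the type II genes, with a coefficient of variation of 8.57% for Krt6a and 7.78% for Krt6b. It was 12.1% for Krt16 and 16.0% for Krt17. Among the 227 genes averaging 10000 normalized counts or more, the SD of the log2 value ranked 91 from the smallest for Krt6a, 77 for Krt6b, 162 for Krt16 and 201 for Krt17. Changes well inside the intervals above were not detectable with these mice. Of the same 227 genes, 82.4% had a positive log2 fold change, with a median of 0.07, beside 1 positive and 3 negative values among the wound-induced keratins.

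The ratio between 2 keratins in the same mouse is free of the depth factor, and 6 such ratios were compared between the groups. The ratio of Krt6a to Krt6b was 1.31, 1.24, 1.19, 1.26 and 1.13 in the PBS-treated mice 1 to 5, and its lowest, median and highest values after DT were 1.25, 1.30 and 1.35. Most DT-treated mice were above most PBS-treated mice, but PBS 1 and PBS 4 lay within the DT range. The log2 ratio averaged 0.29 ± 0.08 in the PBS group (SD, n = 5) and 0.39 ± 0.04 in the DT group (SD, n = 6), which differ by 0.09 with p = 0.0303 by a two-sided exact permutation test and 0.182 after adjustment over the 6 pairs. The 5 other pairs differed by 0.0072 (Krt6b to Krt16) to 0.15 (Krt6a to Krt17) on the log2 scale, with adjusted exact p between 0.390 and 0.896. No ratio passed the threshold of 0.05, so no member was shown to change differently from another.

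Across the 11 mice, the levels of Krt6a, Krt6b and Krt16 varied together on the deposited scale, and that of Krt17 did not follow them detectably. Under quantile normalization none of these correlations passed the threshold, with r of -0.561 for Krt6a and Krt6b, 0.349 for Krt6a and Krt16 and 0.178 for Krt6b and Krt16. Each value there depends only on the rank of the gene in its library. These r therefore compare ranks among the most abundant genes and not levels. Points of 1 mouse share a library and its depth factor, and Krt6a and Krt6b may also share reads. For Krt6b and Krt16, Pearson's r was 0.875 (permutation p = 0.00131, adjusted over the 6 pairs 0.00786) and Spearman's rho 0.773 (permutation p = 0.00713, adjusted 0.0391). Without PBS 3 and DT 3, the mice farthest from the median of Krt6b, r was 0.586 (permutation p = 0.0977), so this relation rests in part on those mice. Such values of r were not particular to the wound-induced keratins. With no test, Krt6a had r = 0.847 with Krt76 and 0.835 with Krt10, and Krt16 had r = 0.899 with Krt14. Other keratins followed less or ran the other way, with r of -0.184 for Krt6a and Krt13 and -0.636 for Krt6a and Krt4. For Krt6b, r was 0.718 with Krt14 and 0.427 with Krt76.

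For Krt6a and Krt16, which share no stretch of 75 bases, r was 0.756 (permutation p = 0.00659, adjusted 0.0132) and rho 0.736 (permutation p = 0.0130, adjusted 0.0391), and r was 0.780 (permutation p = 0.0156) without PBS 5 and DT 3. For Krt6a and Krt6b, r was 0.789 (permutation p = 0.00318, adjusted 0.00954), rho was 0.627 (permutation p = 0.0433, adjusted 0.0866), and r without PBS 5 and DT 3 was 0.754 (permutation p = 0.0222). Leaving out DT 3 alone lowered r to 0.696 for Krt6a and Krt16 and to 0.609 for Krt6a and Krt6b, with adjusted permutation p of 0.0896 and 0.142. With the group means removed, r was 0.871 for Krt6a and Krt6b, 0.820 for Krt6a and Krt16 and 0.873 for Krt6b and Krt16, with adjusted permutation p of 0.00360, 0.00506 and 0.00498.

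None of the pairs with Krt17 passed the threshold. Krt16 and Krt17, neighbours on the chromosome, had r = 0.434 (permutation p = 0.183, adjusted 0.275) and rho = 0.300 (permutation p = 0.370, adjusted 0.555), and r was -0.016 without PBS 3 and DT 3. Krt17 had r = -0.07 with Krt6a (rho = -0.13, permutation p = 0.839 and 0.713) and r = 0.17 with Krt6b (rho = -0.17, permutation p = 0.617 and 0.615). Without the mice farthest from the median of the first gene these became 0.09 (permutation p = 0.823) and -0.64 (permutation p = 0.0664). Whether the correlations with Krt17 differ from those among the other genes was not tested.

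**Figure D3:**
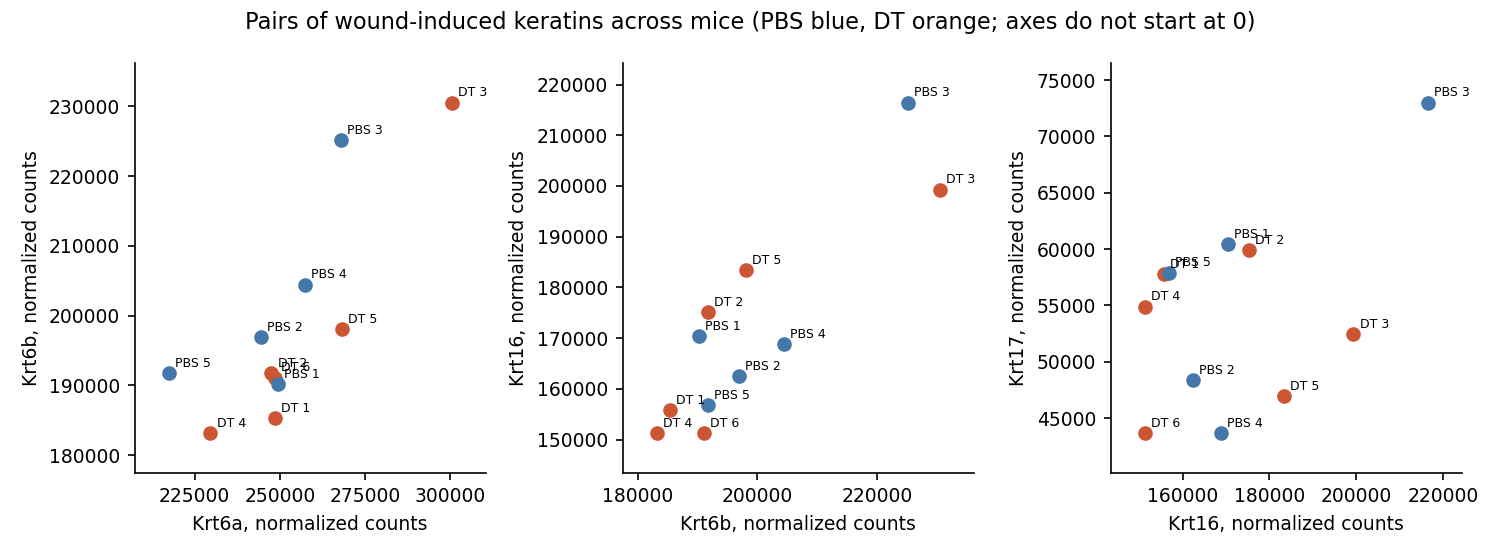
Normalized counts (axes not from 0) of 3 pairs of wound-induced keratins, 1 point per mouse, PBS in blue and DT in orange. Krt6a with Krt6b (r = 0.789) and Krt6b with Krt16 (r = 0.875) run along a diagonal that ends in PBS 3 and DT 3, and Krt16 with Krt17 (r = 0.434) scatters.

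As a description with no test, the genes whose levels over the 11 mice were most like each member were listed among the 13473 other genes that averaged 10 normalized counts or more. For Krt6a they were Dlgap4 (r = 0.893), Pkp1 (0.889) and Jup (0.888), the last 2 encoding the desmosomal proteins plakophilin 1 and plakoglobin. Dpf2 (0.905) and Zfp316 (0.896) were among the nearest to Krt6b. For Krt16 they were Cwc25 (0.914), the basal keratin gene Krt14 (0.899) and Tsnax (0.862), where Krt14 is also the gene with which Krt16 shares stretches of 75 bases. Chst15 (0.915), Ddt (0.915) and Aldoc, a glycolytic aldolase (0.871), were nearest to Krt17.

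The rest of the keratin family gave no call either. Of the 39 other keratin genes with a value, 0 passed the threshold by limma, and their median log2 fold change was 0.02. Krt15, a basal type I keratin, had the smallest p of them, with 9888 ± 1191 normalized counts in the PBS group (SD, n = 5) and 11825 ± 934 in the DT group (SD, n = 6). Its log2 fold change was 0.26 (SE 0.08, limma adjusted p = 0.213), and it passed the threshold without PBS 4 (adjusted p = 0.0908). By layer, 0 of 3 basal keratins, 0 of 10 suprabasal keratins, 0 of 6 keratins of simple epithelia and 0 of 14 keratins of the hair follicle were called.

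**Figure D4:**
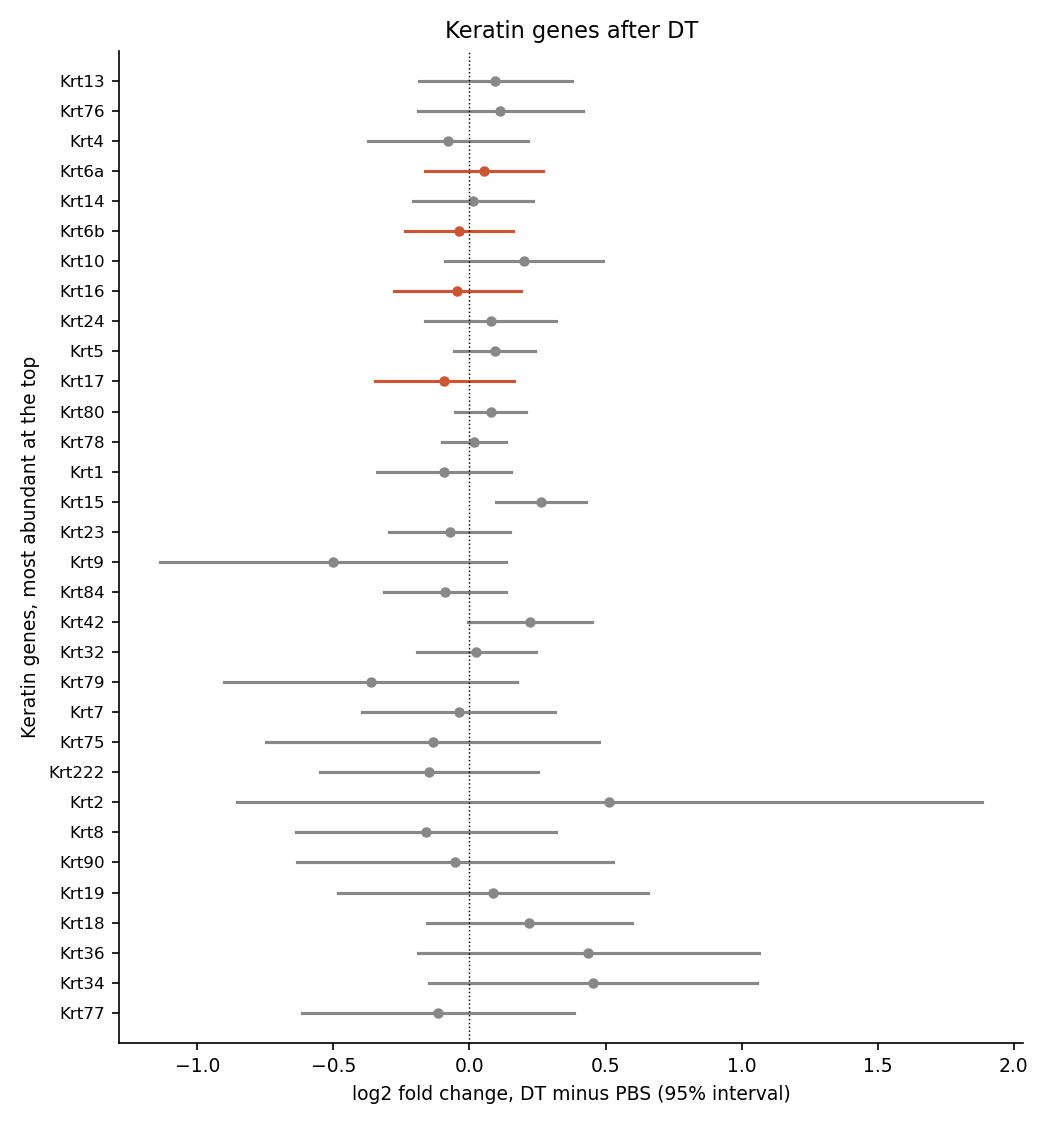
Log2 fold change (DT minus PBS) of the 32 keratin genes averaging 10 normalized counts or more, most abundant at the top, with the 95% interval from limma and the wound-induced keratins in orange. The intervals of Krt6a, Krt6b, Krt16 and Krt17 all cross 0, and Krt15 is the keratin whose interval lies above 0.

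Genes that accompany the wound-induced keratins in activated epithelium were mostly not called. Of 33 keratinocyte activation genes (alarmins, small proline-rich proteins, cytokines and antimicrobial peptides), 0 were called and 5 had an unadjusted p under 0.05, where 11.5% of all genes did. Among the 30 that averaged 10 normalized counts or more, the median log2 fold change was 0.12, with 22 positive and 8 negative values. The median over all genes depended on their level. It was 0.0022 over the 13477 genes averaging 10 or more and 0.07 over the 227 genes averaging 10000 or more. The smallest p values belonged to Gjb6, a gap junction gene, Il36b, a cytokine of the interleukin 1 family, and Defb14, a defensin, with log2 fold changes of 0.23, 0.31 and 0.35 and limma adjusted p of 0.121, 0.174 and 0.258. Gjb6 passed the threshold without PBS 5 or DT 1 (adjusted p = 0.0881 and 0.0656), and Il36b without PBS 5 or with array weights in limma (adjusted p = 0.0184 and 0.0416). Of 27 wound migration genes (proteases, integrins, laminins and motility genes) 0 were called. Among the 23 that averaged 10 normalized counts or more, the median log2 fold change was 0.012, with 12 positive and 11 negative values. Vim, Plau and Snai2 had log2 fold changes of -0.62, 0.21 and 0.36 with limma adjusted p of 0.262, 0.275 and 0.290. Plau passed without PBS 3 (adjusted p = 0.0806).

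Among genes known to regulate stress keratins, members of the AP-1 family rose, and whether they acted on these keratins here was not tested. AP-1 dimers of Fos and Jun proteins act on keratin gene promoters in keratinocytes, and of 20 regulators known for stress keratin genes, 4 were called higher after DT and 0 lower, where 0.313% of all genes were called higher and 0.245% lower. Of the 20, 16 had a positive log2 fold change and 4 a negative one. The largest, 2.19, belonged to a gene that was not called. The list was chosen with earlier results of these data known. Fos had 5327, 3296, 3906, 9475 and 2282 normalized counts in the PBS-treated mice 1 to 5 and between 10882 and 17819 after DT, with no overlap between the groups. Its log2 fold change was 1.70 (SE 0.26, limma adjusted p = 0.00897). Jun rose by 1.11, Junb by 0.68 and Jund by 0.40 on the log2 scale (limma adjusted p = 0.00897, 0.00815 and 0.0638), also with no overlap. Calls for Fos, Jun and Junb held without each mouse in turn, that for Jund was lost without any of 6 mice (PBS 1, PBS 2, DT 3, DT 4, DT 5 or DT 6), and all 4 were lost when limma was run without the intensity trend (adjusted p from 0.119 to 0.248) or with a block on library numbers (adjusted p from 0.110 to 0.186). The call for Jund was also lost with a block on title numbers (adjusted p = 0.132).

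Of 10 EGF receptor ligands and receptors, a pathway that raises wound-induced keratins in cultured keratinocytes, 1 was called higher, against 0.313% of all genes. An unadjusted p under 0.05 by limma was found for 4 of the 10, against 11.5% of all genes. This list and the next were chosen with earlier results of these data known. Areg, the ligand amphiregulin, averaged 62.2 ± 17.4 normalized counts in the PBS group (SD, n = 5) and 127 ± 39.6 in the DT group (SD, n = 6). It rose by 1.01 on the log2 scale (SE 0.22, limma adjusted p = 0.0784), and its call was lost without PBS 1, PBS 2, DT 1, DT 4, DT 5 or DT 6 (adjusted p from 0.143 to 0.211), without the intensity trend (0.263) and with a block on title (0.213) or library numbers (0.277). Hbegf and Ereg, further ligands, had log2 fold changes of 0.71 and 0.35 with limma adjusted p of 0.126 and 0.186. Hbegf passed without PBS 5 or DT 3, with array weights or with a block on title numbers (adjusted p from 0.0647 to 0.0826), and Ereg passed without PBS 4 (adjusted p = 0.0596). Of 12 genes for keratin partners and filament assembly, 2 had an unadjusted p under 0.05 by limma. Of these 12, 1 was called lower, against 0.245% of all genes. Eppk1, the gene of the keratin-binding protein epiplakin, fell by 0.76 on the log2 scale, from 2931 ± 551 to 1727 ± 240 normalized counts (SD, n = 5 and 6, limma adjusted p = 0.00832). Its call was lost without the intensity trend (adjusted p = 0.149) and with a block on library numbers (adjusted p = 0.167). Sfn, whose product binds keratin filaments, and Flg, the filament-aggregating protein filaggrin, had log2 fold changes of 0.14 and -0.31 with limma adjusted p of 0.398 and 0.451.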

How the data were processed

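RNA of the gingival epithelium of 11 langerin-DTR mice was sequenced. The paper's reporting summary names a kit for stranded mRNA libraries, while its methods refer to a guide for libraries read from the 3′ end. The authors trimmed the reads, aligned them with TopHat, counted them per gene with htseq-count, removed genes with few reads and divided each count by a DESeq2 size factor. Per the submitters' processing notes the tools were cutadapt 2.10, TopHat2 2.1.1, HTSeq 2.01 and DESeq2 1.36.0 on GRCm39, while the methods name GRCm38. No coordinates are therefore given. The deposited values are a score here: normalized counts, given for 19170 genes and written as question marks for 36244. Every value (100%) came out as a whole number of reads, within 0.05 of a read, which gave the depth. A number of 0 per-sample columns was left unused.

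For the main comparison, limma 3.58.1 (R 4.3.3, intensity trend, no covariate) was fitted to log2(value + 1), with Benjamini-Hochberg adjustment and a threshold of 0.1. Fold changes on this scale understate changes of low genes. For ratios, two-sided exact permutation tests were used, and for correlations 100000 permutations (threshold 0.05). Tests on counts with edgeR or DESeq2, planned as alternatives, were not run. The main comparison used the values in their deposited, normalized form. The recovered reads gave the depth, an alternative scaling by trimmed means (TMM) and the basis of the simulated data. Lengths and coding sequences came from GENCODE mouse release 21 (GRCm38), and the neighbouring genes from RefSeq on GRCm38. Stretches were compared over the annotated transcripts on their own strand.

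The 4 keratins and the gene lists were chosen with earlier results of these data known. Named genes are the 4 members, Cd207, the 3 genes of smallest p and each called gene of a list, keratins by level, and the 3 genes most like each member, of which 1 is not reported here. Same-numbered mice did not deviate together (r from -0.233 to 0.324), so the numbers were not used to pair them. The fit was also run on simulated data, in which all genes had the same added spread between mice. The changes placed in those data lay beyond the intervals of the 4 keratins, so that run does not bear on smaller changes.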

Additional observations from a re-analysis of the deposited data

Results flagged for a closer look

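Each of the 4 keratins and the 6 log2 ratios was examined in both groups for a mouse far from the others, which makes 20 groups of values, and chance alone marks about 1 in 20. Krt6b in DT 3, at 230521 normalized counts, stood above the next DT-treated mouse at 198042, a gap of 0.685 of the range of the group. Krt16 in PBS 3, at 216427 normalized counts, stood above the next PBS-treated mouse at 170413, a gap of 0.772 of the range. Without PBS 3 the log2 fold change of Krt16 turned from -0.05 to 0.03, and none of these 4 keratins was called without DT 3 or any other single mouse.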

How the results depend on the processing

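None of the 4 keratins was called in any of the 21 limma fits or in the exact test. The log2 fold change of Krt6a ranged from 0.0085 to 0.086 when each mouse was left out in turn, and that of Krt6b from -0.085 to 0.0021, of Krt16 from -0.094 to 0.034 and of Krt17 from -0.18 to 0.004. Krt17 turned to 0.031 under quantile normalization and Krt6b to 0.013 when summed with Krt6a. With the replicate number as a block, although same-numbered mice are not pairs, limma gave log2 fold changes of 0.06, -0.03, -0.01 and -0.04 for Krt6a, Krt6b, Krt16 and Krt17 by the title numbers, and it changed none of their calls. The number of genes called, 107, was 35 with that block and 0 with a block on library numbers (1404 at an unadjusted p under 0.05), 189 with array weights, 4 without the intensity trend (chosen after seeing the data), and 27 to 259 when a mouse was left out.

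The difference in the ratio of Krt6b to Krt16 was -0.045 with group medians and -0.032 to 0.029 without each mouse, that of Krt16 to Krt17 was -0.0080 to 0.13, and that of Krt6b to Krt17 was -0.0019 to 0.15. Leaving out each mouse gave r of 0.609 to 0.869 for Krt6a and Krt6b, 0.696 to 0.831 for Krt6a and Krt16, -0.0042 to 0.525 for Krt16 and Krt17, -0.305 to 0.021 for Krt6a and Krt17 and -0.302 to 0.274 for Krt6b and Krt17. Spearman's rho was 0.627 for Krt6a and Krt6b and -0.173 for Krt6b and Krt17. Quantile normalization, which gives each rank 1 value in all libraries, gave r of -0.561 for Krt6a and Krt6b, 0.349 for Krt6a and Krt16, 0.178 for Krt6b and Krt16, 0.277 for Krt6a and Krt17 and -0.103 for Krt6b and Krt17, and no correlation passed the threshold. Cd207 ranged from -0.44 to 0.055 without each mouse. The cause of these changes was not tested. The lowest keratin value was 43670 normalized counts, where counting error is small, and fits with another number of mice were not made beyond leaving out each in turn. The edgeR and DESeq2 alternatives were not run.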
